A study of Homo sapiens with 8 samples.

Results

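The 9 genes described here, *ABCC9*, *ABCC8*, *ABCB1*, *ABCC1*, *ABCC2*, *ABCC3*, *ABCC4*, *ABCC5* and *ABCG2*, encode ATP-binding cassette (ABC) transporters and were chosen by name from the 64486 genes of the GENCODE annotation on GRCh37, of which 20176 are protein-coding. *ABCC9* was picked because its promoter peaks follow MYCN status, so all comparisons of the members' promoters and gene bodies between the MYCN groups are given as descriptions, with no test. The data are MBD-seq peak lists of 8 established neuroblastoma (NB) cell lines: sheared genomic DNA was captured with the methyl-CpG-binding protein MBD2, sequenced, and reduced to regions of enrichment (peaks). The labels call MYCN amplified (MNA) in N206, LAN-2, IMR-32 and CHP-902R and not amplified (single copy) in SK-N-AS, SJNB-1, SH-SY5Y and CLB-GA. The labels name no treatment or other allele. Each line gave 1 library from 1 culture, so the spread within a group is the spread between different lines and holds no repeat of any line.

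ABC transporters are membrane proteins that use ATP to move substrates across the membrane. ABCB1 (P-glycoprotein), ABCG2 (breast cancer resistance protein) and the ABCC proteins known as MRPs export drugs, conjugates and signalling molecules, and several of them have been studied in neuroblastoma for their link to chemotherapy and to MYCN. ABCC8 (SUR1) and ABCC9 (SUR2) are exceptions in the family: they export no drug and serve as the sulfonylurea receptor subunits of ATP-sensitive potassium (KATP) channels, whose pore is built by KCNJ11 or KCNJ8. CpG-dense promoters are usually unmethylated, and methylation there goes with silencing, whereas methylation inside the body of a gene is common in expressed genes.

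The lists held 70816 (SJNB-1) to 112412 (LAN-2) peaks and covered 1.28% (SJNB-1) to 1.97% (LAN-2) of the genome. The MNA lists averaged 97901 ± 10507 peaks and the single copy lists 79910 ± 7001 peaks (SD, n = 4 each), a difference whose part in the comparisons below was examined with lists of equal length. The number of reads of each line is not given in the sources used here. The labels matched the lists at the *MYCN* locus: within 1 Mb of the gene, peaks covered 8.68 to 19.8% of the sequence where MYCN was amplified and 1.87 to 4.76% where it was not, and the groups did not overlap. The copy number at the 9 genes is not given in the sources used here, and its part in their peaks was not tested.

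Around *ABCC9* 2 stretches carried peaks in different lines, and neither was marked in a single copy line. They are shown here with a stretch upstream of *ABCG2*, since that gene had no promoter peak in any line. All are GRCh37 reference sequence on the strand of the gene, outside annotated UTRs, written 5′ to 3′ with each CpG, the dinucleotide whose methylation MBD2 binds, in capitals. The first is from the interval shared by CHP-902R, IMR-32 and LAN-2 (chr12:22094968-22095267, minus strand), the second from the N206 peak (chr12:22093823-22094122, minus strand) and the third from upstream of *ABCG2* (chr4:89080177-89080356, minus strand).
ABCC9 upstream: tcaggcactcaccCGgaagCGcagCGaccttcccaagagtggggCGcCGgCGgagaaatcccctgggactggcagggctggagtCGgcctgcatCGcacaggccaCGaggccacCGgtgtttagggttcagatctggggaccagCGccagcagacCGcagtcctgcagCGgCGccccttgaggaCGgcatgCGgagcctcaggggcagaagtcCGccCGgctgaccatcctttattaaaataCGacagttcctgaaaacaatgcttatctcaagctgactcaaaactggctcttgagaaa
ABCC9 downstream: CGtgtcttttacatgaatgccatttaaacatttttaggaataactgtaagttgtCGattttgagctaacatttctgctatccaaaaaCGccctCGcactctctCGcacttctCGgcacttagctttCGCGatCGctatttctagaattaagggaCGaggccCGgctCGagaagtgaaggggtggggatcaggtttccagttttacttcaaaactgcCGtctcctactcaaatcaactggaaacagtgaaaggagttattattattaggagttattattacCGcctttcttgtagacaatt
ABCG2 promoter: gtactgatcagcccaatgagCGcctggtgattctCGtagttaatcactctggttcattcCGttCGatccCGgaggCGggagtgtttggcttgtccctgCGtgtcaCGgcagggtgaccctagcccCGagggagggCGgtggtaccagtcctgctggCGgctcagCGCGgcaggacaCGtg
The upstream *ABCC9* stretch held 19 CpG in 300 bases and the downstream stretch 14 in 300 bases. Upstream and downstream are meant from the TSS of the Ensembl canonical transcript, and both *ABCC9* stretches lie within the annotated gene. The *ABCG2* stretch held 14 in 180 bases, and the denser bases nearer its TSS are annotated as UTR and not shown.

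*ABCC9* encodes SUR2 and lies at chr12:21950323-22095477 on the minus strand, with 15 annotated transcription start sites (TSSs), 11 of them around the first exon and 4 inside the gene. A peak was counted as a promoter peak of a gene where it touched the bases between -1500 and +1000 bp of a TSS, and positions are given from the TSS of the Ensembl canonical transcript. The peak of CHP-902R ran from -1190 to -312 bp with a score of 152.9, higher than 97.7% of that line's list. The peak of IMR-32 ran from -1209 to -608 bp with a score of 124.7, higher than 93.3% of the list. The peak of LAN-2 ran from -1152 to -464 bp with a score of 96.2, higher than 74.8% of the list. These 3 peaks shared 545 bp with 35 CpG (6.42 per 100 bp). The score is that of the peak caller: it is higher for stronger enrichment and starts at 50 in every list. The peak of N206 lay on the other side of the canonical TSS, from +63 to +750 bp, over the first and second exon, with a score of 76.1, higher than 63.2% of the list. It shared no base with the other 3 and ended 374 bp short of them, so the MNA lines were alike in having a peak in the window but not in where it lay. The 11 TSSs around the first exon ran from -1117 to 193 bp, and each of the 4 peaks covered at least 1 of them. SK-N-AS, SJNB-1, SH-SY5Y and CLB-GA had no peak in any of the 5 promoter segments into which the *ABCC9* windows merge.

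A promoter peak in all 4 MNA lines and no single copy line was present at 94 of 64486 genes, or 0.146%, and the reverse at 33 genes, or 0.0512%. Of protein-coding genes 0.198% had the pattern near any TSS, and of all genes 0.0944% had it at the canonical TSS, as *ABCC9* did. *ABCC9* was chosen for this pattern, and nothing is read from that share. With only peaks of a score of at least 100 the *ABCC9* peaks of LAN-2 and N206 were lost, leaving 2 of 4 MNA lines against 0 of 4. The protein-coding genes whose promoter scores over the 8 lines were closest to *ABCC9* were *COL12A1*, *TAPT1*, *TRAK1*, *VTCN1* and *ACSS3*, at Euclidean distances of 21.2, 28.8, 31.5, 32.8 and 40.5 between the 8 within-list percentiles. *TAPT1* also had a peak in SK-N-AS, and the other 4 had none in a single copy line.

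**Figure D1:**
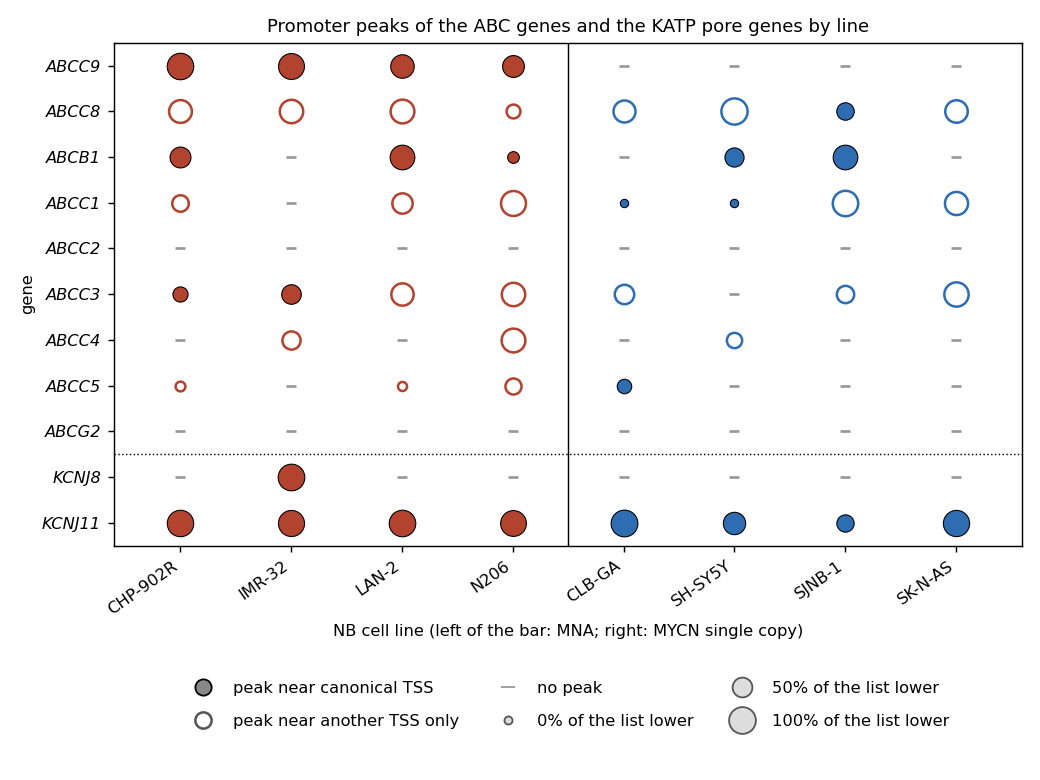
Promoter peaks of the 9 ABC genes and the 2 KATP pore genes (rows) in the 8 lines (columns; red, MNA; blue, MYCN single copy). Filled circles mark a peak in the window of the canonical TSS, open circles a peak near another TSS only, and the area grows linearly with the percentage of the line's list that has a lower score; *ABCC9* is marked in 4 MNA lines and no single copy line, *KCNJ11* in all 8 lines, and *ABCC2* and *ABCG2* in none.

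The rest of the *ABCC9* gene did not follow MYCN status. Its body carried 4, 3, 1 and 2 peaks in N206, LAN-2, IMR-32 and CHP-902R and 2, 4, 1 and 0 peaks in SK-N-AS, SJNB-1, SH-SY5Y and CLB-GA. Without the promoter peaks the 4 MNA lines together had 6 and the single copy lines 7, and 4 regions of the body were marked in 1 line of each group, among them one over exon 25 in N206 and SJNB-1. A further region, with scores of 61.35 and 99.84, was marked in 2 MNA lines, CHP-902R and N206, and no single copy line. With 1.46 ± 1.00 peaks per 100 kb (SD, n = 8), *ABCC9* had the sparsest body of the 9 genes, and 14.0% of the 6794 protein-coding genes of at least 50 kb had a lower density.

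The other sulfonylurea receptor gene, *ABCC8* (chr11:17414045-17498441, minus strand), had a promoter peak near some TSS in 8 of 8 lines, a state shared by 2.73% of all genes and 6.11% of protein-coding genes. It was the only one of the 9. That count rests on its 54 annotated TSSs, which merge into 10 segments spread over the gene. At the canonical TSS, *ABCC8* had a peak in SJNB-1 only, from -620 to -137 bp with a score of 61.2. The segment from 80928 to 81848 bp downstream, near the 3′ end, was marked in 7 lines, all but N206, and the segment from 67902 to 69406 bp downstream in 6 lines, 3 of each group. In 5 lines, CHP-902R, IMR-32, CLB-GA, SH-SY5Y and SK-N-AS, a peak lay over exons 24 to 26, with scores from 64.4 to 134.5. The promoter-window peaks of the 2 genes therefore differed in place: those of *ABCC9* lay around its first exons, and those of *ABCC8*, but for that of SJNB-1, near TSSs inside the gene.

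*ABCB1* (chr7:87132333-87342639, minus strand), the gene of P-glycoprotein, had a peak in the canonical window in 5 lines, 3 MNA and 2 single copy. In CHP-902R, N206, SH-SY5Y and SJNB-1 it was the same stretch at the far edge of the window, from -1549 to -1044, -1532 to -1063, -1522 to -1051 and -1635 to -1024 bp, with scores of 74.9, 53.4, 70.2 and 92.0. These 4 peaks came equally from both groups. LAN-2 had a different peak that covered the canonical TSS, from -410 to 618 bp with a score of 109.8, and a smaller one from 829 to 1588 bp with a score of 62.4. The peak from -410 to 618 bp was the only one of any of the 9 genes to cover a canonical TSS. Of the 16 peaks in the canonical windows, 5 covered some annotated TSS, this one and the 4 of *ABCC9*. The annotation also gives *ABCB1* a group of TSSs from -112439 to -112410 bp, inside the neighbouring *RUNDC3B* gene, where N206 and SH-SY5Y had peaks with scores of 52.5 and 134.1. Those peaks cannot be assigned to either gene.

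*ABCC1* (chr16:16042995-16237114, plus strand), which encodes MRP1, a transporter of glutathione conjugates, had a promoter peak in 3 MNA and all 4 single copy lines but at the canonical TSS only in CLB-GA and SH-SY5Y, with scores of 50.2 and 50.3. Both were within 1 unit of the lowest score in the lists and lay upstream, from -1016 to -575 and from -1177 to -704 bp. The other promoter peaks of *ABCC1* were at internal TSSs. The window 58200 bp downstream was marked in CHP-902R, LAN-2 and N206 and no single copy line, and the window 156910 bp downstream in CHP-902R and all 4 single copy lines. The window at 126558 bp was marked in 2 MNA and 2 single copy lines, that at 148376 bp in 2 and 0, and that at 170961 bp in 0 and 2. The windows thus leaned both ways, and the share of single windows with such patterns was not taken.

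*ABCC3* (chr17:48712138-48769614, plus strand), the gene of MRP3, an exporter of bile salts and glucuronides, had promoter peaks in 4 MNA and 3 single copy lines. At the canonical TSS there were 2, from -947 to -318 bp in CHP-902R (score 59.2) and from -973 to -356 bp in IMR-32 (score 70.6). *ABCC4* (chr13:95672089-95953729, minus strand), which encodes MRP4, an exporter of cyclic nucleotides, had none at the canonical TSS and single peaks near other TSSs in IMR-32, N206 and SH-SY5Y, with scores of 66.6, 87.1 and 61.0. *ABCC5* (chr3:183637722-183735727, minus strand), the gene of the related MRP5, had 1 canonical peak, in CLB-GA from -1300 to -724 bp (score 59.5), and peaks at 3 different internal TSSs in CHP-902R, LAN-2 and N206. None of these 3 genes had a canonical peak in more than 2 lines. With *ABCC2* and *ABCG2*, *ABCC4* was 1 of 3 members without a canonical peak in any line, as were 50.8% of protein-coding genes.

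*ABCC2* (chr10:101542397-101612351, plus strand), which encodes MRP2, the exporter of conjugates at the bile canaliculus, and *ABCG2* (chr4:89011302-89152780, minus strand) had no promoter peak near any TSS in any line, as did 44.4% of all genes and 26.1% of protein-coding genes. Both nevertheless had peaks elsewhere: *ABCC2* had 22 body peaks over the 8 lines and *ABCG2* 27. The promoters of these 2 genes differ in sequence, with 0.640 CpG per 100 bp in the canonical window of *ABCC2* and 4.20 in that of *ABCG2*.

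Over the 9 genes, a promoter peak near any TSS was present at 7, 6, 4 and 6 genes in N206, LAN-2, IMR-32 and CHP-902R and at 3, 4, 4 and 4 genes in SK-N-AS, SJNB-1, SH-SY5Y and CLB-GA. The MNA lines averaged 5.75 ± 1.26 genes and the single copy lines 3.75 ± 0.50 genes (SD, n = 4 each), and IMR-32 was level with 3 single copy lines. At the canonical TSS the numbers in the same order were 2, 2, 2 and 3 against 0, 2, 2 and 2, with means of 2.25 ± 0.50 and 1.5 ± 1.0 genes (SD, n = 4 each). With a score of at least 100 the difference between the groups near any TSS was 0. Protein-coding genes as a whole had a promoter peak in 38.6 ± 2.17% of cases in the MNA group and 35.2 ± 2.34% in the other group (SD, n = 4 each). The median member was marked in 4 lines near any TSS and in 1 line at the canonical TSS, against 2 and 0 for all protein-coding genes, and the members had a median of 10 annotated TSSs against 5.

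Of the 80 peaks in the promoter windows of the 9 genes, 16 lay in a canonical window, 57 overlapped an exon and 44 overlapped coding sequence. Their scores ran from 50.2 to 152.9 with a median of 64.5, and 6 reached 100.

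**Figure D2:**
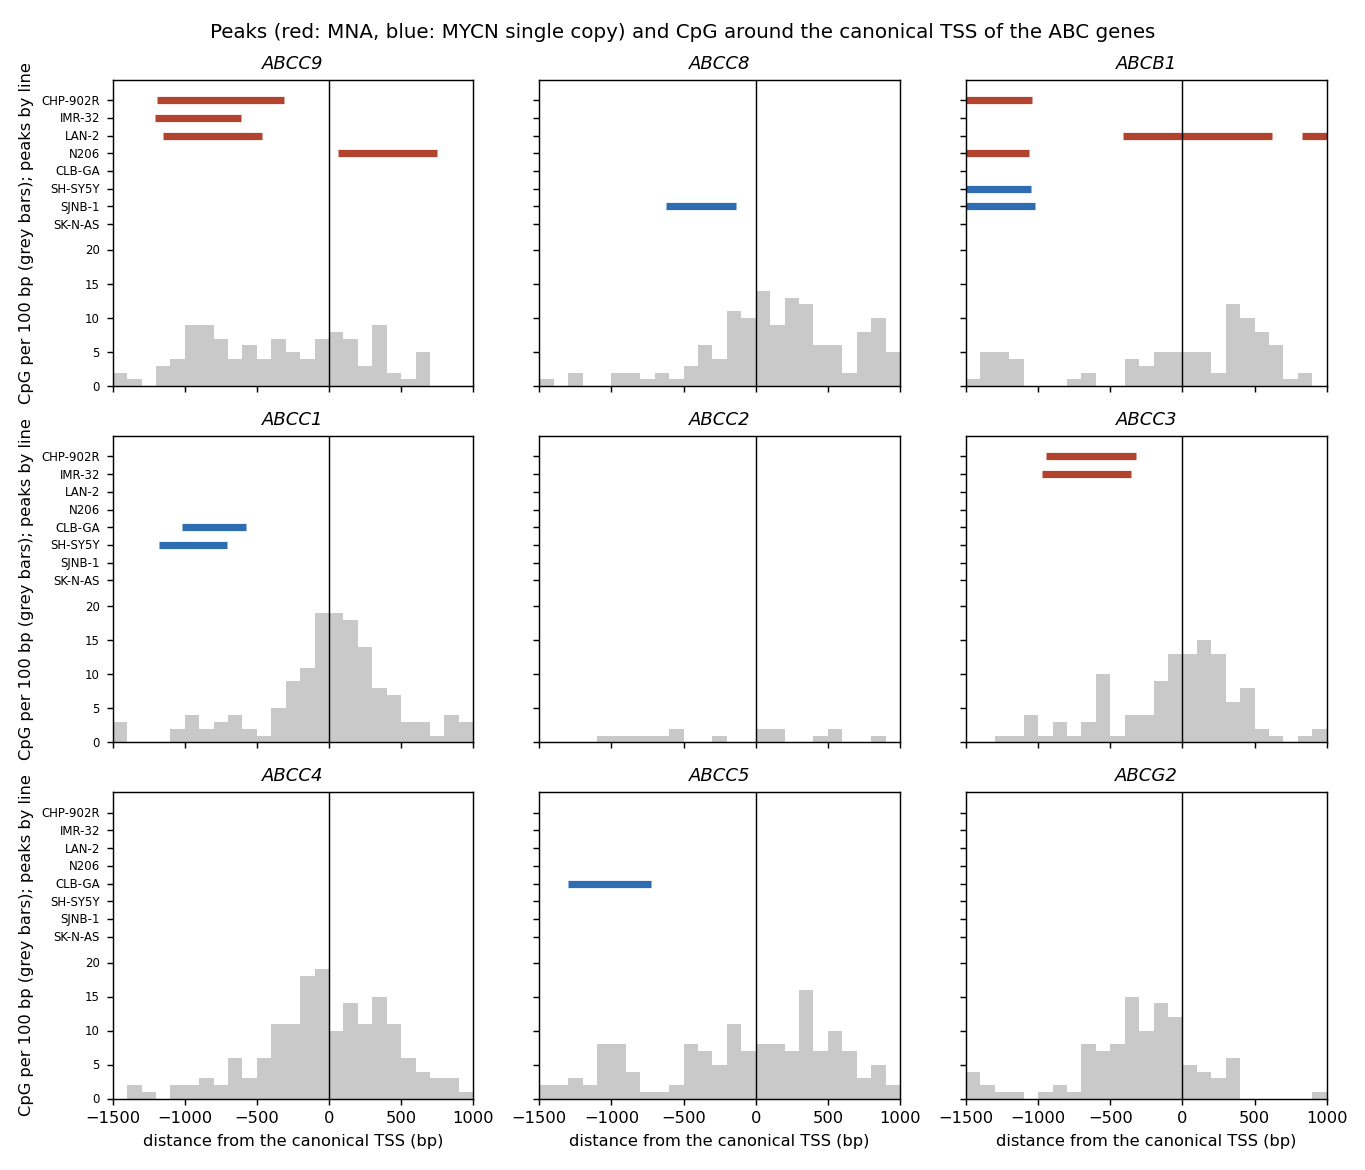
Peaks by line (red bars, MNA; blue bars, MYCN single copy) and the number of CpG per 100 bp (grey bars) against the distance in bp from the canonical TSS of each gene, cut off at the edges of the window. Of the 16 peaks, 13 end upstream of the TSS, in windows that reach further upstream than downstream. Of the same peaks, 11 do not touch the densest 100 bp of their gene. The densest bins of *ABCC1* and *ABCC4*, with 19 CpG, carry no peak, while all 4 *ABCC9* peaks touch one of its densest bins.

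Of the 16 peaks in the canonical windows 11 did not touch the 100 bp with the most CpG in the window of their gene, and 5 did: the 4 peaks of *ABCC9*, where 3 bins tied at 9 CpG, and the LAN-2 peak over the *ABCB1* TSS. Of the 16, 13 ended upstream of the TSS, and 15 had a lower CpG density than the 501 bp centred on the TSS of their own gene. At *ABCC1* those 501 bp held 16.2 CpG per 100 bp and the peaks of CLB-GA and SH-SY5Y 3.17 and 2.32. At *ABCC3* they held 11.2 CpG per 100 bp and the peaks of CHP-902R and IMR-32 3.17 and 3.07. The exception was the LAN-2 peak over the *ABCB1* TSS, at 5.93 CpG per 100 bp against 4.79. At *ABCC9*, with a core density of 6.39 CpG per 100 bp, the peaks of LAN-2, IMR-32 and CHP-902R came close, with 6.10, 5.81 and 6.03. The *ABCC9* peak of N206 was further below, at 4.22.

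The canonical windows ranged from 0.640 CpG per 100 bp at *ABCC2*, with 4.65% of 19894 protein-coding promoters lower, to 6.56 at *ABCC4*, with 83.2% lower. The median over all protein-coding promoters was 4.20, and the genome held 0.985 CpG per 100 bp. *ABCC9*, at 4.28, was near that median. *ABCC4*, the most CpG-rich of the 9, and *ABCC2*, the poorest, both had no canonical peak. With rising density between them, *ABCB1* (3.44) was marked in 5 lines, *ABCG2* (4.20) in 0, *ABCC9* in 4 and *ABCC3* (4.64) in 2. *ABCC8* (5.20) and *ABCC5* (5.76) were marked in 1 line each and *ABCC1* (5.80) in 2. At *ABCC4* 4 lines had peaks within 1131 to 1750 bp, just past the edge of the window. A relation between density and peaks was not tested.

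The bodies of the 9 genes, 1283 kb in all, carried 68, 77, 47 and 79 peaks in N206, LAN-2, IMR-32 and CHP-902R and 53, 52, 56 and 63 in SK-N-AS, SJNB-1, SH-SY5Y and CLB-GA. The MNA lines averaged 67.8 ± 14.6 peaks and the single copy lines 56.0 ± 4.97 (SD, n = 4 each), and the groups overlapped because IMR-32 had the fewest of all. Relative to the density of peaks over the whole genome in the same line, the bodies were 1.66 ± 0.28 times as dense in the MNA group and 1.70 ± 0.20 times in the other (SD, n = 4 each). With lists of equal length the difference turned from 11.8 peaks more in the MNA lines to -6.75.

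Of the 9 genes 7 had a body peak in all 8 lines, as did 32.8% of protein-coding genes of any length, and *ABCC9* and *ABCG2* had one in 7 lines. The 9 bodies are 57.5 to 282 kb long, and a longer body has more room for a peak. *ABCC5* had the densest body, with 8.04 ± 2.47 peaks per 100 kb (SD, n = 8), followed by *ABCC3* with 7.61 ± 4.36, *ABCC8* with 6.52 ± 1.68, *ABCC1* with 6.31 ± 1.98 and *ABCC4* with 5.77 ± 1.65. *ABCC2* with 3.93 ± 1.83, *ABCB1* with 3.51 ± 2.13 and *ABCG2* with 2.39 ± 1.77 were below the median of 4.24 for protein-coding genes of at least 50 kb. *ABCC4* and *ABCC2* differed by just over 1 SD, and all other neighbours in this order by less than the larger of their SDs. *ABCC8* had 6 body peaks in every line but N206, which had 2. *ABCB1* had 2 in IMR-32 and 1 in CLB-GA against 6 to 14 in the other lines, so 1 line of each group stood low. The annotated bodies of *ABCB1* and *ABCG2* also run upstream of their canonical TSSs, and peaks there were counted for these genes. The only *ABCB1* body peak of CLB-GA lay there, in a region from -38393 to -37757 bp. Whether such peaks belong to these genes was not tested. *ABCC4* had 16 to 23 peaks in MNA lines and 9 to 16 in single copy lines, meeting at 16, and *ABCG2* had 0 to 5 and 3 to 8.

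**Figure D3:**
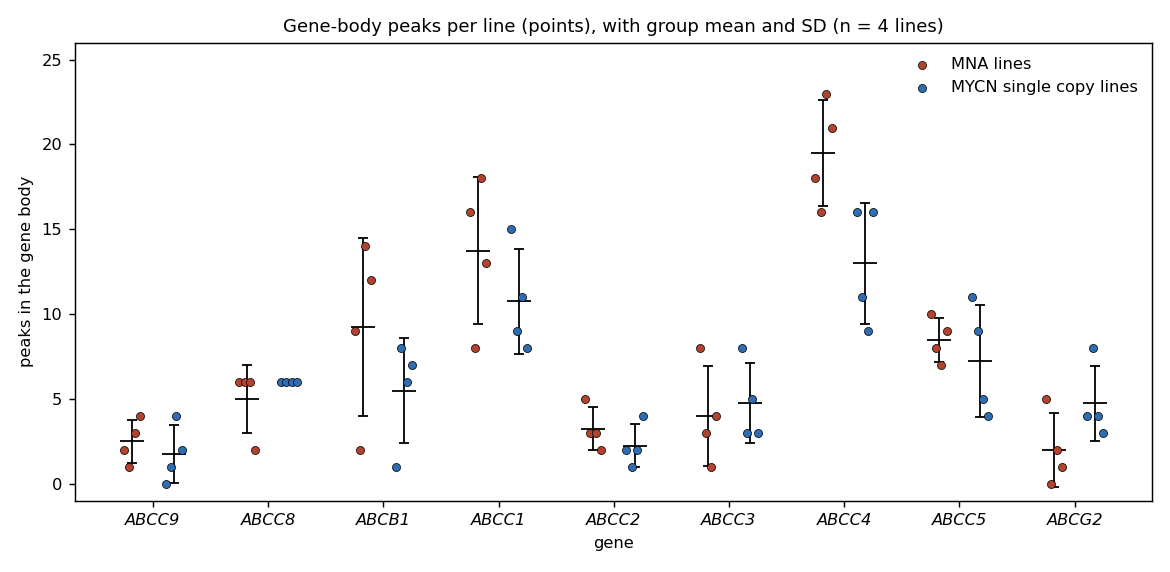
Number of peaks in the body of each gene (y axis) in each MNA line (red points) and each MYCN single copy line (blue points), with the group mean (horizontal bar) and SD (n = 4 lines). *ABCC4* has the most, 16 to 23 in MNA lines and 9 to 16 in single copy lines, and the groups meet or overlap at every gene.

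The genes also differed in where their body peaks lay. Of the 44 body peaks of *ABCC8*, 37 (84.1%) overlapped an exon by at least 1 bp, and at *ABCC3* it was 22 of 35 (62.9%). At *ABCC1* it was 39 of 98, at *ABCC5* 27 of 63 and at *ABCC4* 12 of 130. None of the 27 peaks of *ABCG2* overlapped an exon. An exon was overlapped by 6 of 17 peaks of *ABCC9*, 7 of 59 of *ABCB1* and 3 of 22 of *ABCC2*. By bases, exons made up 32.3% of *ABCC8*, 16.7% of *ABCC3*, 4.50% of *ABCC1*, 11.6% of *ABCC5* and 3.06% of *ABCC4*. The share was 3.96% at *ABCG2*, 12.0% at *ABCC9*, 3.05% at *ABCB1* and 11.2% at *ABCC2*. That share is no background for the peaks, since a wide peak needs only 1 bp of exon to count. The body peaks were CpG-rich against their surroundings, with a median of 2.55 CpG per 100 bp, and 479 of 495 were denser in CpG than the body of their own gene, whose density ran from 0.649 at *ABCC9* to 1.70 at *ABCC1*. The same count over the peaks of other genes was not taken, so nothing particular to these genes is read from it.

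More of the marked regions were found in a single line than in several. Merged across lines, the body and promoter peaks formed 284 regions, of which 169 (59.5%) were marked in 1 line and 7 in at least 6 lines. The most widely shared, in 7 lines each, were a region over exons 27 to 29 of *ABCC3* in all lines but LAN-2 and a region inside an intron of *ABCC5* in all lines but SH-SY5Y. Regions over exon 15 of *ABCC5* and exon 9 of *ABCC1* and intronic regions of *ABCB1*, *ABCC3* and *ABCC4* were each marked in 6 lines.

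The intronic *ABCC5* region ran from 59524 to 61187 bp downstream of the canonical TSS, and 734 bp of it were common to all 7 peaks, whose scores ran from 54.4 to 136.3. The common interval held 51 CpG, or 6.95 per 100 bp, with GC at 45.0%. A CpG-rich stretch of it is shown because its sequence repeats (chr3:183675337-183675636, minus strand, CpG in capitals).
ABCC5 intron: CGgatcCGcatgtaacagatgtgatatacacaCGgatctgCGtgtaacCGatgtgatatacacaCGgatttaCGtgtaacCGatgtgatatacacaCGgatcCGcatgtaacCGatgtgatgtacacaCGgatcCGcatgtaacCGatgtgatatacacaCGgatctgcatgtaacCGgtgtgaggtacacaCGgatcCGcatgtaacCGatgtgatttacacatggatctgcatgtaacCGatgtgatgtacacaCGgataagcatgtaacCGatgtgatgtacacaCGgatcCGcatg
The interval is built of a unit of 32 bp, with 91.0% of bases equal to the base 1 unit further on and a median of 24.7% over all distances tested. Of its 690 windows of 45 bp, the length of 1 read end, 418 (60.6%) occur once in the genome, against 90.9% over the *ABCC5* body. The part of the repeat in these peaks was not tested.

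The pore genes lie beside the receptor genes, *KCNJ8* 21788 bp from *ABCC9* and *KCNJ11* 3166 bp from *ABCC8*. *KCNJ11*, which encodes the pore subunit Kir6.2, had a peak at the canonical window in 8 of 8 lines, as did 1.04% of all genes and 0.96% of protein-coding genes. Its peaks had scores from 58.5 in SJNB-1 to 235.9 in CLB-GA, and 408 bp were common to all lines. This interval, with 18 CpG, lies within the single exon of the canonical transcript, and its part outside annotated UTRs is shown as the one stretch near these genes marked in every line (chr11:17409150-17409377, minus strand, CpG in capitals).
KCNJ11 shared: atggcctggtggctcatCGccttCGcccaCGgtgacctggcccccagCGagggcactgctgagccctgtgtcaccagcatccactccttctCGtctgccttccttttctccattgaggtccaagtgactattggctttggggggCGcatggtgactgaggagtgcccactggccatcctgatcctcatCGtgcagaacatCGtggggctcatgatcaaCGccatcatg
*KCNJ8*, which encodes Kir6.1, had a promoter peak only in IMR-32, from 972 to 1461 bp with a score of 195.6, higher than 99.0% of the list. In its body, CHP-902R, IMR-32 and LAN-2 had a peak over the last exon with scores of 54.4, 55.5 and 76.5, and N206 had one in an intron with a score of 71.6. No single copy line had a peak in *KCNJ8*. A body peak in all 4 MNA lines and no single copy line was present at 0.0884% of all genes and 0.0942% of protein-coding genes. As at *ABCC9*, the N206 peak lay apart from those of the other MNA lines.

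Whether the DNA around the genes differed between the groups was asked over 1 Mb on each side, without the body and promoter windows, a measure that played no part in choosing the genes. Around *ABCC9* peaks covered 0.593%, 1.02%, 1.71% and 1.25% in N206, LAN-2, IMR-32 and CHP-902R and 1.24%, 1.31%, 0.722% and 0.433% in SK-N-AS, SJNB-1, SH-SY5Y and CLB-GA. The groups overlapped, at 1.15 ± 0.47% and 0.928 ± 0.423% (SD, n = 4 each), and a two-sided exact permutation test of the means gave p = 0.543, adjusted p = 0.675 over the 9 genes. The other 8 genes gave exact adjusted p of 0.675 to 0.743 by the same permutation test. The smallest unadjusted exact p that 4 against 4 allows is 0.0286. Most of the 9 genes would have had to reach it for any to pass after adjustment. The lowest unadjusted exact p was that of *ABCG2*, 0.200, with 1.70 ± 0.53% against 1.17 ± 0.46% in the single copy lines (SD, n = 4 each). *ABCC3* lay in the most heavily marked surroundings, with 3.87 to 9.69% and 4.54 to 6.19% covered.

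**Figure D4:**
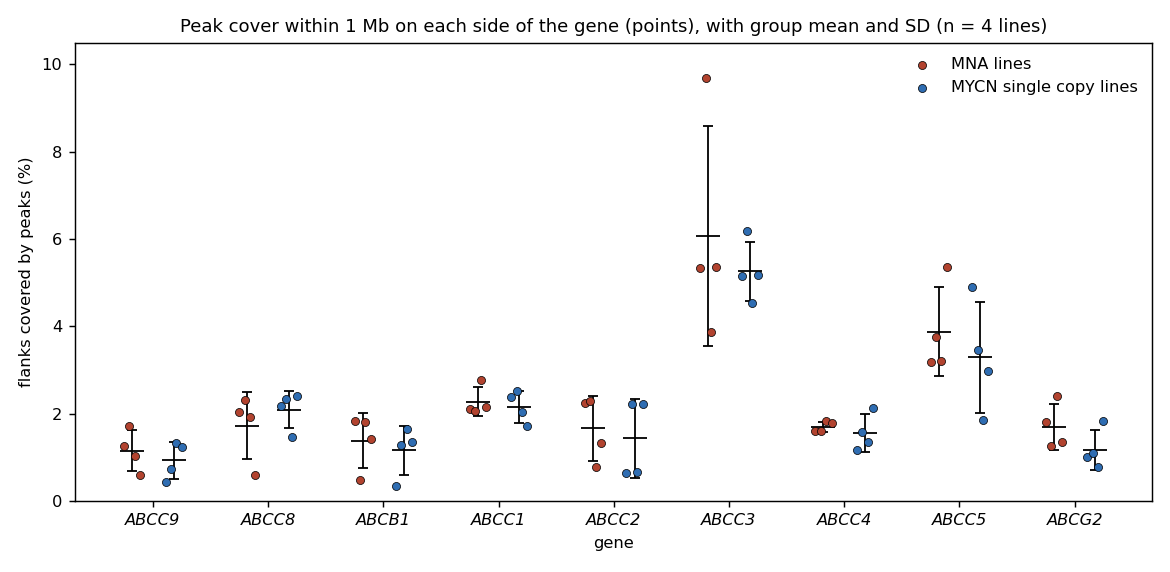
Percentage of the sequence within 1 Mb on each side of each gene that peaks covered (y axis), without the gene body and promoter windows, in each MNA line (red points) and each MYCN single copy line (blue points), with the group mean (horizontal bar) and SD (n = 4 lines). The groups overlap at all 9 genes, and *ABCC3* reaches 9.69% in IMR-32.

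The remaining 39 ABC genes give the family's background. A promoter peak near any TSS was present at 18, 20, 19 and 21 of them in N206, LAN-2, IMR-32 and CHP-902R and at 18, 20, 21 and 12 in SK-N-AS, SJNB-1, SH-SY5Y and CLB-GA. The means were 19.5 ± 1.29 and 17.8 ± 4.03 genes (SD, n = 4 each), and CLB-GA alone stood low. The difference of 1.75 genes turned to -0.167 without CLB-GA, to -0.25 at the canonical TSS and to -1.0 with lists of equal length.

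Of the 39 genes, 9 had no promoter peak, 16 had one in 1 to 5 lines and 14 (35.9%) in at least 6 lines, against 21.6% of protein-coding genes in at least 6 lines. At the canonical TSS 4 were marked in at least 6 lines and 22 in none, against 5.16% and 50.8% of protein-coding genes. A gene with more annotated TSSs has more windows in which a peak counts, and the names that follow are for any TSS. *ABCA3*, a lipid transporter of surfactant-producing cells, and *ABCB9* and *ABCC10* were marked in all 8 lines, as were 6.11% of protein-coding genes. *ABCA3* was marked at its canonical TSS in all 8 lines, as were 0.96% of protein-coding genes. Among the others, *ABCA4*, *ABCF3*, *ABCG1* (a sterol exporter), *ABCG5* and *ABCG8* were marked in 7 lines, and *ABCA7*, *ABCA13*, *ABCB8*, *ABCB10* and *ABCD4* in 6. *ABCG5* and *ABCG8*, whose products form 1 sterol exporter, are transcribed away from each other and share their promoter peaks. By subfamily, the median number of lines was 4.5 for the 12 ABCA genes, 4 for the 10 ABCB genes, 4 for the 5 ABCC genes, 3 for the 4 ABCD genes, 4 for the single ABCE gene, 2 for the 3 ABCF genes and 7 for the 4 ABCG genes.

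None of the 39 separated the groups fully. Only *TAP2*, a peptide transporter of antigen presentation, and *ABCG4* differed by at least 3 lines, as did 2.96% of protein-coding genes. *TAP2* was marked in CHP-902R, IMR-32 and LAN-2 and no single copy line, and *ABCG4* in SK-N-AS, SJNB-1 and SH-SY5Y and no MNA line. For both, a two-sided Fisher exact test gave p = 0.143 and an adjusted p of 1.0 over the 35865 genes with a promoter peak in at least 1 line. Across those genes the exact test called 0 at an adjusted p under 0.05 and 127 (0.354%) at an unadjusted p under 0.05, and 0 of the 39 at either. The smallest p this exact test allows is 0.0286, reached only where the groups separate fully, and the 127 were too few for any to pass the adjustment. Members with a promoter peak are among the genes adjusted over, and no result of the test is read for them.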

How the data were processed

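MBD2-captured DNA of 8 NB cell lines was sequenced with paired ends of 45 bp. The authors mapped the reads to GRCh37 with Bowtie 0.12.7 and called peaks in each line separately with MACS. The deposited values are 1 list of peaks per line, each with a position and the MACS score, a transformed p-value with higher values for stronger enrichment, from 50 upwards, the value of a p of 1e-05. Options, input control and the read number of each line are not given in the sources used here, so depth cannot be set beside a list, the absolute level of methylation is unknown, and a missing peak does not mean unmethylated DNA. Fragments from repeats may map elsewhere: of windows of 45 bp, 92.6 to 100% of each canonical promoter and 81.8 to 96.6% of each gene body of the 9 members occur once in the genome.

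Peaks were joined by at least 1 bp overlap to GENCODE release 44 on GRCh37, in windows of -1500 to +1000 bp around any TSS, or around the TSS of the Ensembl canonical transcript, and to gene bodies. BED starts were moved to 1-based positions. Score percentiles were taken within each list. The genes and lists were chosen with earlier results of these data known. Promoter and body peaks of members are compared between the MYCN groups without a test. Flanks of 1 Mb were compared with a two-sided exact permutation test, and non-members with Fisher's exact test, Benjamini-Hochberg adjusted. Named genes were the 9 members, both pore genes, other ABC genes marked in at least 6 lines or differing by 3 or 4 lines between groups, and the 5 protein-coding genes closest to *ABCC9*. Of the genes meeting this rule, 1 is not reported here. Alternatives were a minimum score of 100, lists cut to the 70816 highest peaks, peak midpoints, a window to +500 bp, the canonical TSS, flanks of 500 kb, cover relative to the genome, and each line left out. Joins were tested on simulated peaks, with 230 of 230 isolated planted genes recovered among 55064. Python 3.11.15, numpy 2.4.6, scipy 1.17.1, pandas 2.3.3 and pysam 0.24.0 were used.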

Additional observations from a re-analysis of the deposited data

Results flagged for a closer look

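Of 42 groups of 4 lines examined, 3 had a line whose gap to the nearest other line, divided by the range of the group, was above Dixon's critical value, and chance alone would give about 1 in 20. N206 had 2 body peaks in *ABCC8* against 6, 6 and 6 in the other MNA lines (gap over range 1.0). LAN-2 had 2.77% of the *ABCC1* flanks covered by peaks against 2.07 to 2.15% in the other MNA lines (gap over range 0.886), and LAN-2 also had the longest list. SK-N-AS had a promoter peak at 3 of the 9 genes against 4, 4 and 4 in the other single copy lines (gap over range 1.0). Where the other 3 lines are tied, any difference gives 1.0, here a single gene for SK-N-AS, and these values mark a line without testing it. The part of list length in these values was not tested.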

How the results depend on the processing

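With 1 library per line, nothing measured the error within a line, and peaks near the lowest score may be present or absent by depth alone. The difference in the share of lines with an *ABCC9* promoter peak, 100 percentage points, was 50.0 with a score of at least 100. It was 100 with equal lists, midpoints, the window to +500 bp and the canonical TSS, and leaving out a line cannot change it. Genes marked in every MNA and no single copy line numbered 94, and 52, 48 and 22 at the canonical TSS, with equal lists and with a score of at least 100, and 145 to 246 with 1 line left out. The reverse pattern numbered 33, and 16, 64 and 5 under the same alternatives and 64 to 101 with 1 line left out. The difference in members with a promoter peak, 2.0 genes, was 0.75 at the canonical TSS and 0.0 with a score of at least 100, and 1.58 to 2.58 with 1 line left out. The difference in body peaks was -6.75 with equal lists and 8.0 to 18.7 with 1 line left out. For the other ABC genes the difference, 1.75, was -0.25 at the canonical TSS and -1.0 with equal lists, and ran from -0.167 (without CLB-GA) to 2.83 with 1 line left out. The cause was not tested. The test of the flanks could not pass for 1 gene alone, so its outcome says nothing about stability, and the sign of the small differences turned in several alternatives. Relative to the genome it was -0.0252 for *ABCB1*, -0.243 for *ABCC1*, -0.00719 for *ABCC2*, -0.250 for *ABCC3*, -0.121 for *ABCC4*, -0.122 for *ABCC5* and -0.0148 for *ABCC9*. With equal lists it was -0.390 for *ABCC1*, -0.0503 for *ABCC4* and -0.125 for *ABCC5*, and with a score of at least 100 -0.0284 for *ABCC4*. With a line left out it ran from -0.0486 (without CLB-GA) to 0.526 for *ABCB1*, from -0.0471 (without LAN-2; -0.0309 without SK-N-AS) to 0.235 for *ABCC1*, from -0.0447 (without CLB-GA; -0.0324 without SJNB-1) to 0.520 for *ABCC2*, from -0.404 (without IMR-32) to 1.54 for *ABCC3* and from -0.578 to 0.00664 (without N206) for *ABCC8*. No paired analysis was possible because the replicate numbers only name the lines, and no line of one group is tied to a line of the other.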
